A study of Mus musculus with 12 samples.

Results

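Il2, Il3, Csf2 and Il13 encode lymphokines, small secreted proteins first known from activated lymphocytes. Their 4 probes were taken by name from the 734 endogenous probes of the nCounter Myeloid Innate Immunity Panel, and all 4 passed the filter on low counts together with 541 other probes, Il2 with at least 20 counts in 6 libraries. Counts came from bone marrow-derived mast cells (BMMCs), grown for at least 4 weeks with IL-3 from the marrow of C57BL/6 mice aged 6 to 8 weeks. With Cas9 ribonucleoproteins a zsGreen reporter was inserted into exon 2 of Kit in c-Kit KO cells, the edited controls, or into exon 1 of Mettl3 in Mettl3 KO cells, and zsGreen-positive cells were sorted. Each edited population was left unstimulated or was stimulated for 4 h with anti-DNP IgE at 1 µg/ml plus its antigen HSA-DNP at 0.2 µg/ml, with 3 replicates in each of the 4 groups. All groups thus shared Cas9 editing, the reporter, sorting and culture in IL-3 protein, and no unedited cells were compared.

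IL-2 is the growth factor of T cells, which are its main source. IL-3 and GM-CSF, the product of Csf2, sustain and activate myeloid cells and mast cells through receptors that share the common beta chain, while IL-13 is a type 2 cytokine that acts on epithelium, smooth muscle and macrophages. Crosslinking of the IgE receptor FcεRI drives calcium entry, NFAT and other activation factors onto such cytokine genes, and the mRNAs are short-lived, in part through AU-rich elements (ATTTA repeats) in their 3′ untranslated regions. Mettl3 is the catalytic subunit of the complex that writes N6-methyladenosine (m6A) on mRNA, a mark linked to mRNA decay, and the comparison of the edited populations addresses its role in stimulated mast cells.

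Il3, Csf2 and Il13 lie in the type 2 cytokine cluster, on chromosome 11 of GRCm39, all on the minus strand. Il3 (54156129 to 54158103) and Csf2 (54138097 to 54140493) are neighbours separated by 15635 bases, and Il13 (53522151 to 53525529) lies 612567 bases from Csf2 and 12654 bases from Il4. Il2 is elsewhere, on chromosome 3 (37174672 to 37180108, minus strand).

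The 250 bases upstream of each annotated start are shown because Il3, Csf2 and Il13 rose with stimulation in both populations and varied together between libraries, whereas Il2 was above background in stimulated Mettl3 KO libraries alone. They are RefSeq sequences on GRCm38.p6, read 5′ to 3′ on the minus strand, at chr3:37125955-37126204 for Il2, chr11:54267280-54267529 for Il3, chr11:54249900-54250149 for Csf2 and chr11:53634703-53634952 for Il13. Capitals mark GGAAA, the core of NFAT sites, and GATAA, a core of GATA factor sites, on either strand.
Il2: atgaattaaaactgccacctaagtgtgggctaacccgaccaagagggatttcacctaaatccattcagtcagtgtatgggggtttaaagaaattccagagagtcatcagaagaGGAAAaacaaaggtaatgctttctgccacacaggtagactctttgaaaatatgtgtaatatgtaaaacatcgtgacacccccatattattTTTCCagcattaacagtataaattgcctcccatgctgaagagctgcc
Il3: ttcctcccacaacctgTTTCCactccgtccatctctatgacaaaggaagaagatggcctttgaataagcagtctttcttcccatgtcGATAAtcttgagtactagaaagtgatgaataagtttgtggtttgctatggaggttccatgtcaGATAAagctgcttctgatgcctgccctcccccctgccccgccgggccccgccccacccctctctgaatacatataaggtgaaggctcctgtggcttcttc
Csf2: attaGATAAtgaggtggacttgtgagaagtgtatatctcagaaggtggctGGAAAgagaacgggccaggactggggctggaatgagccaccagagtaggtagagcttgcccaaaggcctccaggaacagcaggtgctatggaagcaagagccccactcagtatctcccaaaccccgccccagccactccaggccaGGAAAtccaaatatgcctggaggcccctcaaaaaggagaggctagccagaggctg
Il13: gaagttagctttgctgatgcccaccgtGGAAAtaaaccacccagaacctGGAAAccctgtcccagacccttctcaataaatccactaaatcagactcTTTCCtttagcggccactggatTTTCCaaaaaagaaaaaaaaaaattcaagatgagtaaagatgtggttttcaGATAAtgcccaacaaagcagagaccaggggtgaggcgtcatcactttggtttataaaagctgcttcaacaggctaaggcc

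GGAAA occurred 4 times upstream of Il13, 2 times each upstream of Il2 and Csf2 and 1 time upstream of Il3. Of 27025 promoter windows of the same length, 55.6% held GGAAA at least once, 21.7% at least 2 times and 1.61% at least 4 times. GATAA occurred 2 times upstream of Il3, 1 time each upstream of Csf2 and Il13 and 0 times upstream of Il2. It occurred at least once in 23.0% and at least 2 times in 4.50% of all windows, so most windows lack it, as that of Il2 does. The AP-1 motif TGANTCA was also searched on both strands and was in none of the 4 windows and in 6.87% of all windows. These matches describe the letters of the windows and are not measured binding sites.

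In the 3′ untranslated regions, ATTTA was most frequent in Csf2, with 9 matches in 317 bases, and in Il2, with 7 in 581 bases. Il13 had 3 matches in 741 bases and Il3 had 1 in the 101 bases annotated for its canonical transcript. Among 528 panel mRNAs with a 3′ untranslated region, 8.33% had as many matches as Csf2 or more, 13.3% as many as Il2, 41.1% as many as Il13 and 69.5% as many as Il3. Per kilobase of 3′ untranslated region the shares with at least the same density were 0.379% for Csf2, 2.27% for Il2, 12.5% for Il13 and 2.84% for Il3. GGACT, a common core of m6A sites, occurred 1 time in each of the 4 mRNAs, in the 3′ untranslated region for Il13 only. Of the 528 panel mRNAs, 63.3% held it at least once in that region. GGACT is 1 form of a broader consensus, so its absence from a region does not exclude other m6A sites there. After PMA and ionomycin, the study detected methylation on Il13, Csf2 and Il3 mRNA of mast cells. It also mutated 3 putative sites in the 3′ untranslated region of Il13. The 30 bases with the most ATTTA matches are shown for each gene, with ATTTA in capitals, at chr3:37175189-37175218, chr11:54156133-54156162, chr11:54138155-54138184 and chr11:53522560-53522589 of GRCm39 in the order printed, all in the 3′ untranslated region and read on the minus strand.
Il2: ctATTTATTTAaatATTTAactttaATTTA
Il3: ctttatgccatcaaatgtcttatcaATTTA
Csf2: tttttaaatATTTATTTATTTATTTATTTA
Il13: atcttATTTAttatggttgtgtgttATTTA

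Libraries held 504238 to 737910 endogenous counts, and counts were divided by a housekeeping factor between 0.715 and 1.36, giving the scaled counts used below. A count was called above background when it exceeded the mean plus 2 SD of the 8 negative control probes of its library, a limit of 13.1 to 39.2 counts. All 10 mast cell markers were above background in 12 of 12 libraries, among them Fcer1a and Ms4a2, which encode chains of the IgE receptor. Mettl3 has no probe. The Kit probe, at base 4275 of the transcript, lies downstream of the inserted reporter, which carries a polyA-stop cassette. Without stimulation, replicates 1, 2 and 3 of c-Kit KO cells held 1856, 2856 and 2826 scaled counts of Kit, and those of Mettl3 KO cells 4057, 2533 and 2456. After stimulation they were 1159.5, 1613 and 738 in c-Kit KO and 1845, 1771 and 1549.6 in Mettl3 KO libraries. The library labelled c-Kit KO was thus lower in each stimulated pair. It was higher in the unstimulated pairs of replicates 2 and 3, which goes against the label there at the level of RNA. The difference passed the test neither without stimulation (log2 fold change of Mettl3 KO over c-Kit KO 0.26, edgeR adjusted p = 0.997) nor with it (0.56, edgeR adjusted p = 0.469). By staining, the study reported loss of c-Kit protein in sorted c-Kit KO cells and of Mettl3 protein in sorted Mettl3 KO cells. Kit RNA does not measure that protein. Throughout, c-Kit KO and Mettl3 KO name the libraries as labelled, and directions between populations rest on these labels.

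Il2 was at background in 9 of 12 libraries and was measured in stimulated Mettl3 KO libraries only. In unstimulated c-Kit KO libraries its scaled counts were 8.22, 9.18 and 9.87 for replicates 1, 2 and 3, and after stimulation they were 7.42, 22.2 and 19.0. Unstimulated Mettl3 KO libraries had 17.2, 32.2 and 11.3 scaled counts. Stimulated Mettl3 KO libraries had 693.7, 866 and 110.1, and the lowest of these exceeded the highest of the other 9 libraries.

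Il3 was above background in all 6 stimulated libraries and in 1 unstimulated library of each population. Replicates 1, 2 and 3 had 13.7, 31.0 and 29.6 scaled counts in unstimulated and 133.5, 74.6 and 254.9 in stimulated c-Kit KO libraries. In Mettl3 KO libraries they were 19.3, 89.5 and 17.4 without and 2428, 4048 and 920.5 with stimulation. Unstimulated Mettl3 KO replicate 2 stood above the stimulated c-Kit KO library of the same number, and stimulated Mettl3 KO libraries stood above all others.

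Csf2 behaved like Il3 with larger counts after stimulation. Unstimulated c-Kit KO libraries had 6.85, 21.8 and 11.7 scaled counts, none above background, and stimulated ones had 375, 144 and 1180.2. Unstimulated Mettl3 KO libraries had 5.07, 86.7 and 6.94, of which only replicate 2 was above background, and stimulated ones had 5456, 8444 and 1407. The highest stimulated c-Kit KO library and the lowest stimulated Mettl3 KO library, both of replicate 3, differed by 1.19-fold.

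Il13 was the only one of the 4 above background in every library. Its scaled counts were 56.2, 53.9 and 92.4 in unstimulated and 1583, 298 and 2378 in stimulated c-Kit KO libraries. They were 74.1, 211 and 87.6 in unstimulated and 11154, 9363 and 2463 in stimulated Mettl3 KO libraries, where Il13 ranked between 11 and 37 among the 734 endogenous probes. The 2 stimulated libraries of replicate 3 differed by 1.04-fold.

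**Figure D1:**
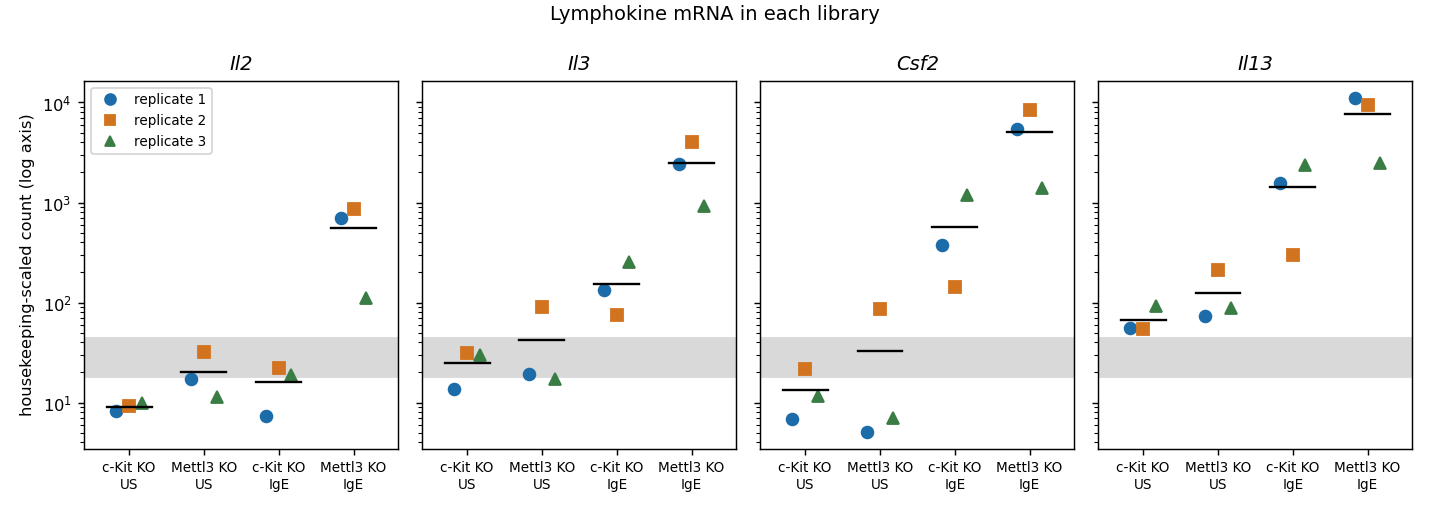
Housekeeping-scaled counts (log axis) of the 4 genes in c-Kit KO and Mettl3 KO libraries, unstimulated (US) or stimulated (IgE). Symbols are replicates 1 to 3, black lines are group means, and the grey band spans the background limits of the 12 libraries after scaling. All unstimulated Il2 values lie in or below the band, and the 3 stimulated Mettl3 KO libraries are the highest for every gene, with replicate 3 the lowest of them.

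Summed over the 4 genes, scaled counts were 115 ± 29.3 (SD, n = 3) in unstimulated and 2157 ± 1648 (SD, n = 3) in stimulated c-Kit KO libraries. In Mettl3 KO libraries the sums were 219.5 ± 173 (SD, n = 3) and 15785 ± 9544 (SD, n = 3). The share of endogenous counts taken by the 4 probes ran from 0.0123% to 0.0525% in unstimulated libraries, from 0.0854% to 0.803% in stimulated c-Kit KO libraries and from 0.990% to 2.97% in stimulated Mettl3 KO libraries. Group means stood in the same order for Il3, Csf2 and Il13, from unstimulated c-Kit KO through unstimulated Mettl3 KO and stimulated c-Kit KO to stimulated Mettl3 KO libraries, whereas for Il2 the 2 middle groups were at background and changed places. In bulk RNA, fewer cells that transcribe a gene and less mRNA per cell cannot be told apart.

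Stimulation raised 3 of the 4 lymphokine mRNAs in c-Kit KO cells, where 66 of 545 probes (12.1%) were called higher at an adjusted p under 0.05. The log2 fold change was 5.38 for Csf2 (SE 1.21, edgeR adjusted p = 0.0108), 4.39 for Il13 (SE 0.80, edgeR adjusted p = 0.00302) and 2.62 for Il3 (SE 0.74, edgeR adjusted p = 0.0313). Il2, with no count above background in either group, had a log2 fold change of 0.83 (SE 0.74, edgeR adjusted p = 0.492). The changes of Csf2, Il13 and Il3 were positive in 3 of 3 same-numbered pairs, while that of Il2 was positive in 2. The median over the 4 genes was 3.51, against -0.05 over all probes tested.

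The size for Csf2, whose unstimulated c-Kit KO counts were all at background, ran from 4.14 to 10.1 over 15 alternatives and was 4.25 without stimulated c-Kit KO replicate 3.

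The call for Il3 depended on single libraries. Without unstimulated c-Kit KO replicate 1, 2 or 3 its edgeR adjusted p was 0.119, 0.0597 and 0.0800, and without stimulated c-Kit KO replicate 3 it was 0.122. Csf2 had an adjusted p of 0.0531 in edgeR without unstimulated c-Kit KO replicate 1, and the c-Kit KO libraries of that number had the lowest positive control signal, with geometric means of 738 and 768 against 1195 or more elsewhere, a part in the result that was not tested. Without both populations of replicate 1 in both conditions, 0 of the 4 genes passed.

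In Mettl3 KO cells all 4 mRNAs rose with stimulation, against 120 of 545 probes (22.0%) called higher. Csf2 had the largest log2 fold change of all probes tested, 7.33 (SE 1.29, edgeR adjusted p = 0.00128). Il13 rose by 5.95 (SE 0.86, edgeR adjusted p = 0.000511), Il3 by 5.90 (SE 0.84, edgeR adjusted p = 0.000492) and Il2 by 4.81 (SE 0.72, edgeR adjusted p = 0.000605), and each rose in 3 of 3 same-numbered pairs. Their median was 5.93, against 0.02 over all probes. The sizes for Il2, Il3 and Csf2 rest on unstimulated counts at or near background. With counts under 20 set to 20, a floor within the range of background limits, the values remained past the threshold, and without unstimulated Mettl3 KO replicate 2, which stood above its group, that of Csf2 was 9.69. The split of all calls was 120 higher and 58 lower here, but 107 and 87 with TMM and 128 and 97 with DESeq2, whose scalings moved the median of all probes to -0.14 and -0.10.

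The 10 mast cell markers ran the other way with stimulation by their median and their sum, while most were not called singly. In c-Kit KO cells 2 of the 10 fell, Ms4a2 and the edited gene Kit, and 1 rose, Hdc, where 37 of 545 probes (6.79%) were called lower. In Mettl3 KO cells 3 of the 10 fell and 1 rose, where 58 (10.6%) were called lower. Their median log2 fold change was -0.60 and -0.77. Their summed scaled counts ran from 354926 to 460197 in unstimulated and 183565 to 304633 in stimulated c-Kit KO libraries, and from 368278 to 503712 and 165583 to 257833 in Mettl3 KO libraries. Cpa3, with up to 264771 raw counts, weighs heavily in these sums and was not called in c-Kit KO cells (edgeR adjusted p = 0.0670). Between stimulated populations none of the 10 passed and their median was -0.21. Their part in the changes of the 4 lymphokines was not tested.

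**Figure D2:**
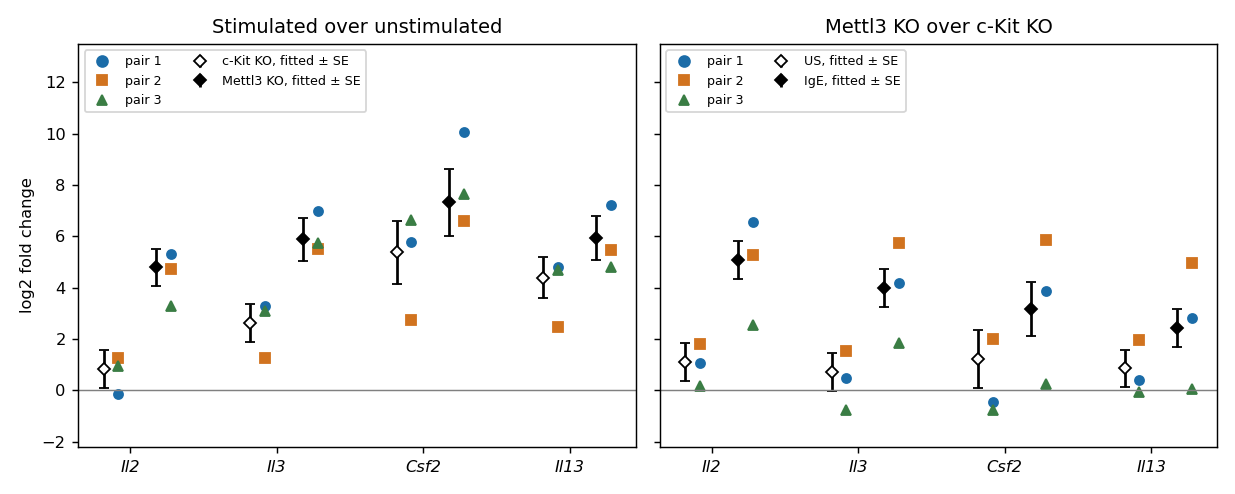
Log2 fold changes of the 4 genes for stimulated over unstimulated libraries (left) and Mettl3 KO over c-Kit KO libraries (right). Diamonds are edgeR estimates with their standard errors, and coloured symbols are differences within same-numbered pairs; with stimulation the pair of replicate 3 gave the smallest difference between populations for every gene, down to 0.05 for Il13.

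Without stimulation none of the 4 passed the test between populations, as was so for all 545 probes (0% called, with 0 also by DESeq2 and 7 at an unadjusted p under 0.05). Log2 fold changes of Mettl3 KO over c-Kit KO were 1.22 for Csf2 (SE 1.13), 1.10 for Il2 (SE 0.74), 0.87 for Il13 (SE 0.72) and 0.72 for Il3 (SE 0.74), each with an adjusted p of 0.997 in edgeR. Mettl3 KO replicate 2 stood above its group for all 4 genes, and without that library Il3 and Csf2 turned to -0.45 and -1.15, and Il13 fell to 0.26.

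After stimulation all 4 mRNAs had higher mean scaled counts in Mettl3 KO than in c-Kit KO libraries, and 2 of them, Il2 and Il3, passed the adjusted threshold, which 5 of 545 probes (0.917%) passed in that direction. Il2 had the largest log2 fold change and the smallest p of all probes, 5.08 (SE 0.73, edgeR adjusted p = 0.00903), and Il3 followed with 3.99 (SE 0.76, edgeR adjusted p = 0.0373). Csf2 had a log2 fold change of 3.17 (SE 1.05, edgeR adjusted p = 0.196) and Il13 of 2.43 (SE 0.73, edgeR adjusted p = 0.162). With the cut-offs the study used, p no higher than 0.05 before adjustment together with a change of 1.5-fold or more, all 4 were called, with 71 of 545 probes (13.0%) higher and 6 lower. In scaled counts the 3 Mettl3 KO libraries stood above the 3 c-Kit KO libraries for each of the 4 genes, an arrangement shown by 78 of 545 probes (14.3%). In raw counts the groups overlapped for Il13, with 3246 in c-Kit KO and 2976 in Mettl3 KO replicate 3.

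The median log2 fold change between stimulated populations was 3.58 over the 4 genes and 0.20 over all probes. TMM brought the latter to 0.01 and DESeq2 to -0.01, with 48 probes higher and 16 lower, or 51 and 22, with the study's cut-offs. The 4 genes kept their direction and were all called by those cut-offs under both. Il2 was at background in each stimulated c-Kit KO library. Its log2 fold change ran from 4.56 to 7.79 over the 15 alternatives, of which 10 kept the call (adjusted p from 2.17e-12 with DESeq2 to 0.819 with edgeR without replicate 1). The highest value came with the negative control mean subtracted, where the call was lost (edgeR adjusted p = 0.109).

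The difference was unequal across the same-numbered pairs. For Il2 the log2 difference was 6.55, 5.29 and 2.53 in replicates 1, 2 and 3, and for Il3 it was 4.18, 5.76 and 1.85. For Csf2 it was 3.86, 5.87 and 0.25, and for Il13 it was 2.82, 4.98 and 0.05. Replicate 3 thus gave the smallest difference for all 4 genes and almost none for Csf2 and Il13. In that pair the c-Kit KO library was the highest of its group for Il3, Csf2 and Il13 and the Mettl3 KO library the lowest of its group for all 4 genes. The latter is numbered 5, not 3, in the study's supplement.

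Calls between stimulated populations followed these libraries. Without both conditions of replicate 3, all 4 genes passed, Csf2 at an edgeR adjusted p of 0.0436 and Il13 at 0.0412. Without replicate 1 or without replicate 2 none did, with an edgeR adjusted p of 0.819 and 0.329 for Il2. When single libraries were left out, Il2 lost its call without stimulated c-Kit KO replicate 1 (edgeR adjusted p = 0.0734) or 2 (edgeR adjusted p = 0.0611). Il3 lost it without 7 of the 12 libraries, with adjusted p values up to 0.196 in edgeR, and Il13 gained it without stimulated Mettl3 KO replicate 3 (edgeR adjusted p = 0.0324). A fit of only the 6 stimulated libraries gave an adjusted p of 0.0986 for both Il2 and Il3 in edgeR. The direction was the same in all of these fits.

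Whether stimulation acted more strongly in Mettl3 KO cells was tested by the interaction of edited gene and stimulation. At an adjusted p under 0.05 it called none of the 4 and 0% of all probes (0 with edgeR, 2 with DESeq2, 23 at an unadjusted p under 0.05 with edgeR). Log2 interaction values were 3.98 for Il2 (SE 1.01, edgeR adjusted p = 0.562), 3.28 for Il3 (SE 1.02, edgeR adjusted p = 0.827), 1.95 for Csf2 (SE 1.5, edgeR adjusted p = 0.993) and 1.56 for Il13 (SE 1.0, edgeR adjusted p = 0.993). With the study's cut-offs Il2 and Il3 were called, among 23 probes (4.22%), all with the more positive change in Mettl3 KO cells. With TMM 16 were in that direction and 4 in the other, and with DESeq2 20 and 4. DESeq2 also called Il2 (adjusted p = 0.00888), as did edgeR without stimulated Mettl3 KO replicate 3 (adjusted p = 0.0117).

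Ratios between the genes within a library do not depend on how libraries are scaled. Since probes differ in efficiency, they compare libraries and not numbers of molecules. Csf2 counts were 23.7%, 48.5% and 49.6% of Il13 counts in stimulated c-Kit KO replicates 1, 2 and 3, and 48.9%, 90.2% and 57.1% in stimulated Mettl3 KO replicates. Il3 counts were 8.43%, 25.1% and 10.7% of Il13 counts in c-Kit KO and 21.8%, 43.2% and 37.4% in Mettl3 KO libraries. In both ratios the Mettl3 KO library was higher in 3 of 3 pairs while the groups overlapped.

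Il3 counts were 35.6%, 51.7% and 21.6% of Csf2 counts in c-Kit KO and 44.5%, 47.9% and 65.4% in Mettl3 KO libraries, higher in 2 of 3 pairs. Across the 6 libraries the ratio of these neighbouring genes spanned 3.03-fold, while the scaled counts of Il3 and Csf2 spanned 54.2-fold and 58.5-fold. The ratios Csf2/Il13 and Il3/Il13, of genes farther apart, spanned 3.81-fold and 5.13-fold, with 37.5-fold for scaled counts of Il13. Il2 counts in Mettl3 KO libraries were 6.22%, 9.25% and 4.47% of those of Il13, 12.7%, 10.3% and 7.82% of those of Csf2, and 28.6%, 21.4% and 11.96% of those of Il3. In c-Kit KO libraries ratios with Il2 involve a background count and have only an upper bound.

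None of the 3 ratios without Il2 passed the test between stimulated populations, an exact permutation test, which cannot go below 0.1 with 3 libraries against 3. The log2 difference of Mettl3 KO over c-Kit KO was 0.71 for Csf2/Il13 (exact p = 0.2), 1.32 for Il3/Il13 (exact p = 0.2) and 0.60 for Il3/Csf2 (exact p = 0.3). These tests were two-sided, and the adjusted p was 0.4 for each, over all 6 ratios. No difference is given for the 3 ratios with Il2.

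**Figure D3:**
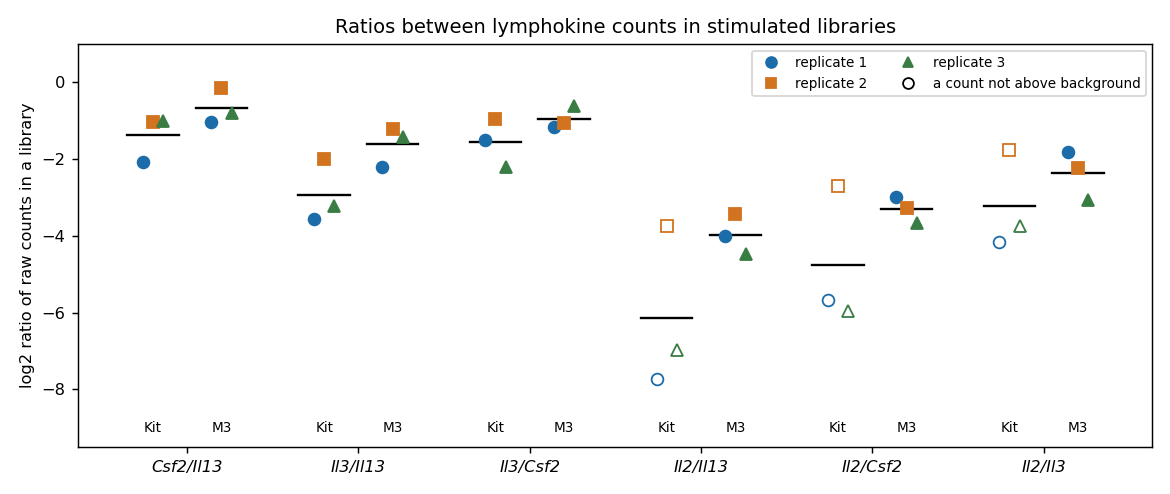
Log2 ratios of raw counts between pairs of the 4 genes in stimulated c-Kit KO (Kit) and Mettl3 KO (M3) libraries, with group means as black lines. Open symbols hold a count not above background, which is the case for every c-Kit KO ratio with Il2; in the 3 ratios without Il2 the mean is higher in Mettl3 KO libraries and the groups overlap.

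Within the stimulated groups, Il3, Csf2 and Il13 varied together from library to library. All 3 genes ran from replicate 3 through 1 to 2 in descending order in c-Kit KO libraries. In Mettl3 KO libraries Il2, Il3 and Csf2 all ran from replicate 2 through 1 to 3, and Il13 from replicate 1 through 2 to 3. As the scaled counts of the populations did not overlap in any of the 4 genes, deviations from the group means were compared. After subtraction of group means on the log2 scale, r over the 6 libraries was 0.98 for Il3 and Csf2, 0.93 for Csf2 and Il13 and 0.89 for Il3 and Il13. It was 0.65, 0.57 and 0.37 for Il2 with Il3, Csf2 and Il13, where the 3 c-Kit KO values of Il2 are background counts. These values are descriptions over few libraries that also share a scaling factor for each library. No such r was computed for the other probes, so the values are not known to be particular to these genes.

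Deviations of Il3, Csf2 and Il13 in replicates 2 and 3 ran opposite ways in the 2 populations. Csf2 deviated from its group mean by -1.47 in c-Kit KO and by 1.07 in Mettl3 KO replicate 2, and by 1.56 and -1.51 in replicate 3. For Il13 the values were -1.80 and 0.56 in replicate 2 and 1.19 and -1.37 in replicate 3. Il2 ran the same way in replicate 2, by 0.56 in c-Kit KO, at background, and 1.10 in Mettl3 KO.

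**Figure D4:**
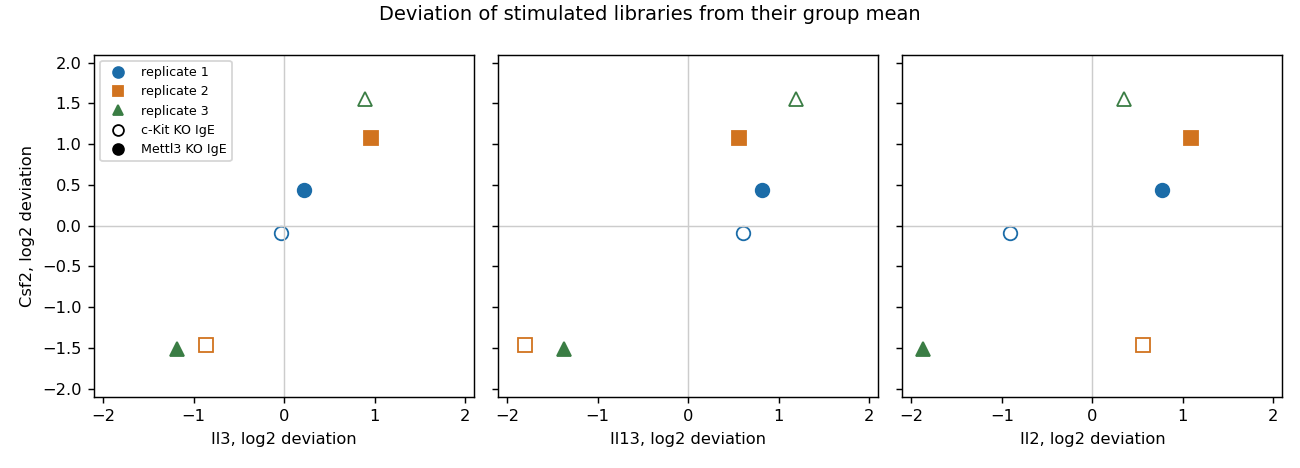
Log2 deviations of Csf2 from its group mean against those of Il3, Il13 and Il2 in the 6 stimulated libraries (open, c-Kit KO; filled, Mettl3 KO; symbols, replicates 1 to 3). Il3 and Csf2 lie close to a line (r = 0.98). For Csf2 the highest deviation is that of c-Kit KO replicate 3 and the lowest that of Mettl3 KO replicate 3. Il2 follows in Mettl3 KO libraries.

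Over the 6 stimulated libraries the probes most like each gene, by Pearson r of log2(scaled count + 1), were Pdzk1ip1 (0.977), Trex1 (0.975) and Ctsl (0.972) for Il2, and Ikzf1 (0.990), Bcl2 (0.978) and Timp3 (0.975) for Il3. Those most like Csf2 were Hbegf, a growth factor gene (0.977), Nfkbie, which encodes an inhibitor of NF-κB (0.968), and Cebpg (0.963), and those most like Il13 were Ets1, a transcription factor gene (0.979), the chemokine gene Ccl3 (0.978) and Hbegf (0.960). Among the 544 other probes Il3 ranked 2nd and Il13 4th in likeness to Csf2, and Csf2 ranked 3rd in likeness to Il13. Il2 ranked 26th for Csf2 and 59th for Il13, but 13th for Il3, where Csf2 ranked 5th and Il13 20th. These values pool both populations, so part of each is the difference between them, which these probes share.

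Of the neighbours in the chromosome 11 cluster, 2 of 3 were tested. Il4, the type 2 cytokine gene beside Il13, rose with stimulation in Mettl3 KO cells by a log2 fold change of 2.01 (SE 0.46, edgeR adjusted p = 0.00612), with 1.17 in c-Kit KO cells (edgeR adjusted p = 0.0900). Between stimulated populations its mean was 446 scaled counts in c-Kit KO and 904 in Mettl3 KO libraries, a log2 fold change of 1.02 (SE 0.44, edgeR adjusted p = 0.312). Irf1, a transcription factor gene in the cluster, had values of -0.98 (edgeR adjusted p = 0.0887) and -0.65 (edgeR adjusted p = 0.207) after stimulation. Il5 was above background in 1 library and was not tested.

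Among 12 other cytokine genes of T cells and mast cells, 7 were tested, and 4 rose with stimulation in each population, against 12.1% of all probes in c-Kit KO and 22.0% in Mettl3 KO cells. The inflammatory cytokine Il6 rose by 1.92 and 3.15 (edgeR adjusted p = 0.0177 and 0.000656) on the log2 scale in c-Kit KO and Mettl3 KO cells. Il9, another type 2 cytokine, rose by 3.23 in c-Kit KO cells (edgeR adjusted p = 0.0313) and Csf1, the macrophage growth factor, by 2.27 (edgeR adjusted p = 0.0380). The size for Il9 rests on a mean of 17.7 scaled counts in unstimulated c-Kit KO libraries, and Il9 was above background in 5 of 12 libraries. Tnf had log2 fold changes of 3.10 in c-Kit KO and 6.17 in Mettl3 KO cells (edgeR adjusted p = 0.0459 and 0.00155). Between stimulated populations none of the 7 passed, where 0.917% of all probes were called higher. Tnf and Il6 had values of 3.19 and 1.36 (edgeR adjusted p = 0.162 and 0.205), and Il9 ran the other way from the 4 lymphokines, with means of 167 scaled counts in c-Kit KO and 41.7 in Mettl3 KO libraries and a log2 fold change of -2.01 (SE 0.85, edgeR adjusted p = 0.292). Il10, Il22, Ifng and Ltb were above background in 0 of 12 libraries.

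Of 11 genes for receptors and JAK-STAT signalling downstream of these cytokines, 10 were tested. With stimulation 2 fell in c-Kit KO cells, and in Mettl3 KO cells 3 fell and 1 rose, against 6.79% of all probes lower in c-Kit KO cells and 10.6% lower and 22.0% higher in Mettl3 KO cells. Pim2, a survival kinase gene induced by STAT5, fell by 1.93 and 1.42 on the log2 scale (edgeR adjusted p = 0.000597 and 0.00171), and Il4ra, which encodes the receptor chain shared by IL-4 and IL-13, fell by 1.00 and 1.36 (edgeR adjusted p = 0.0181 and 0.00178). Stat5a rose in Mettl3 KO cells by 1.18 (SE 0.39, edgeR adjusted p = 0.0365). None of the 10 passed the test between stimulated populations at an adjusted p under 0.05, with 0.94 for Stat5a (edgeR adjusted p = 0.276). Csf2ra, the specific chain of the GM-CSF receptor, was above background in 0 of 12 libraries, whereas Il3ra was above it in all 12.

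All 17 genes for activation transcription factors were tested, of which 5 rose and 1 fell with stimulation in c-Kit KO cells and 10 rose and 1 fell in Mettl3 KO cells. Of all probes 12.1% rose and 6.79% fell in c-Kit KO and 22.0% and 10.6% in Mettl3 KO cells. Nfil3 rose by 3.03 and 3.41 on the log2 scale (edgeR adjusted p = 0.000318 and 0.000103), Ets1 by 2.23 and 2.88 (edgeR adjusted p = 0.000597 and 0.000123) and Egr2 by 3.66 and 4.10 (edgeR adjusted p = 0.000616 and 0.000251). The sizes for Egr2 rest on means of 16.1 and 19.0 scaled counts without stimulation, and Egr2 was above background in 7 libraries. Between stimulated populations none of the 17 passed, against 0.917% of all probes higher. Nfkb1, which encodes a subunit of NF-κB, had a log2 fold change of 1.26 (SE 0.33, edgeR adjusted p = 0.122), and Nfatc1, an NFAT gene, 0.93 (SE 0.28, edgeR adjusted p = 0.162).

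Markers of T cells and innate lymphoid cells, other sources of these cytokines, were low. Cd28, Icos, Ctla4 and Cd40lg were above background in 0 of 12 libraries, and 4 of the 8 markers were above it in any library. Cd247 was above it in 7 libraries and Cd27 and Lag3 in 2 each, with no more than 44, 60 and 52 raw counts. Only Gata3, a transcription factor gene, was above background in all 12, with 54 to 702 raw counts, and it rose with stimulation by 1.95 in c-Kit KO (edgeR adjusted p = 0.0263) and 1.52 in Mettl3 KO cells (edgeR adjusted p = 0.0422) on the log2 scale. The 8 markers summed to 280 to 623 scaled counts in stimulated c-Kit KO and 341 to 709 in stimulated Mettl3 KO libraries. Markers of neutrophils and dendritic cells were above background in no library, and of the eosinophil markers Siglecf in 6 libraries only. Siglecf rose with stimulation by 1.58 in c-Kit KO (edgeR adjusted p = 0.0380) and 2.18 in Mettl3 KO cells (edgeR adjusted p = 0.00486) on the log2 scale, and the part of Gata3 and Siglecf in the changes of the 4 lymphokines was not tested. B cell and macrophage markers were above it in no more than 5 libraries each.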

How the data were processed

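RNA (40 ng per sample) from 12 samples was hybridized to the panel and read on an nCounter instrument, with no amplification. The authors deposited raw counts of barcodes per probe for 734 endogenous, 20 housekeeping, 6 positive control and 8 negative control probes, without normalization. No alignment or build applies, and 0 columns of single samples stayed unmatched. The table also holds the authors' mean, lowest and highest value and coefficient of variation of each probe, which were not used. Housekeeping probes were taken as those listed after the endogenous ones.

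Scaling factors came from the geometric mean over the 20 housekeeping probes of a library. Probes with at least 20 counts in at least 3 libraries (545) were fitted in edgeR 4.0.16 (R 4.3.3) with 1 model of the 4 groups, the quasi-likelihood test and Benjamini-Hochberg adjustment over all 545. The study's cut-offs (p no higher than 0.05 before adjustment and a change of 1.5-fold or more) were read from the same fits. Ratios used exact two-sided permutation tests with adjustment over 6 ratios. Alternatives were TMM, DESeq2 1.42.0, limma 3.58.1 with and without moderation, other choices of housekeeping probes, filter, background, samples and pairing, and the removal of each replicate and of each library. On simulated data for 545 genes, the comparison of stimulated populations called 57 of 72 genes changed 4-fold, 23 of 65 changed 2-fold, 4 of 63 changed 1.5-fold and 3 of 345 unchanged genes.

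The labels number replicates 1, 2 and 3 in each group. Deviations from group means correlated in all 18 same-numbered pairs (r from 0.136 to 0.521, mean 0.334), so the numbers pair the samples. The mean r of -0.168 in the other 36 follows largely from subtracting group means and adds no support. The main edgeR fits and the main tests of ratios did not use this pairing, whereas the alternatives with a replicate block did. The labels name no separate mice or cultures, while the study states 3 independent biological replicates for these data. P-values measure only the spread between these samples. Depth limits the precision at low counts, where negative controls averaged 7.13 to 22.8 per library.

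Genes named are the 4 lymphokines, the 3 probes most like each of them, and up to 3 genes with the smallest p of each gene list and comparison. The genes and lists were chosen with earlier results of these data known. Promoters came from RefSeq on GRCm38.p6, matched by symbol for 4 of 4 genes, and gene positions and transcripts from GENCODE M39 on GRCm39.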

Additional observations from a re-analysis of the deposited data

How the results depend on the processing

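The number of the 4 genes called depended on samples and test more than on scaling. In c-Kit KO cells stimulation gave 3 calls, but 0 with unmoderated limma on those 2 groups alone, and between 0 and 3 when replicates or libraries were left out. In Mettl3 KO cells all 15 alternatives kept Il3, Csf2 and Il13 past the threshold and 14 kept Il2, and no single library changed a call. Between stimulated populations 2 calls became 0 with the negative control mean subtracted, 0 with unmoderated limma, 0 with only the groups compared, and between 0 and 4 on leaving out replicates or libraries. The interaction called 1 gene, Il2, with DESeq2 and 1 with the replicate block without stimulated Mettl3 KO replicate 3, and between 0 and 1 on leaving out replicates or libraries, where 0 was the number with all libraries. The replicate block alone changed no call of the 4 genes, with 4.81 for Il2 and 3.77 for Il3 between stimulated populations, and moved the count of all probes called with stimulation in c-Kit KO cells from 103 to 156. Removal of single libraries was chosen after seeing the data.

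Other counts of all probes moved by over 1.5 times as well. Between stimulated populations 5 probes became 23 with DESeq2, 12 with counts under 20 set to 20, 46 with the block and without stimulated Mettl3 KO replicate 3, and between 0 and 35 on leaving out replicates or libraries. With stimulation the count of 103 in c-Kit KO cells ran from 32 to 162 and that of 178 in Mettl3 KO cells from 68 to 225 over the 15 alternatives.

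Signs turned where counts were at background. With counts under 20 set to 20, the change of Il2 in c-Kit KO cells was -0.12, and with the negative control mean subtracted the interaction of Csf2 was -2.16. Differences between unstimulated populations ran from -0.45 to 1.24 for Il3 and from -1.15 to 1.75 for Csf2 on leaving out replicates or libraries. The log2 ratio Il2/Il3, which holds background counts in c-Kit KO libraries, differed by -0.088 between populations when 20 counts were added to each. The other ratios kept their sign, although those with Il2 also hold background counts in c-Kit KO libraries, so their sign carries no weight. Within pairs, with the replicate as a block, the exact p was 0.25 or 0.5, where 0.25 is the smallest possible.

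Co-variation of Il2 with the others was the least stable. On linear scaled counts r of deviations was 0.95, 0.97 and 0.89 for Il2 with Il3, Csf2 and Il13, 0.73 for Il3 and Il13, and 0.81 for Csf2 and Il13. With replicates left out, r ran from -0.59 to 0.99 for Il2 and Il3, from -0.80 to 0.97 for Il2 and Csf2, from -0.99 to 0.98 for Il2 and Il13 and from 0.67 to 0.95 for Il3 and Il13, each over 4 libraries. The cause of these changes was not tested. Counts at or under the background limit of their library (13.1 to 39.2) could not be told from negative controls, which limits every fold change of Il2, Il3 and Csf2 over unstimulated cells.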
